A study of Mus musculus with 12 samples.

Results

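Ribosomes are assembled in the nucleolus, where RNA polymerase I transcribes the long precursor of the ribosomal RNAs. Small nucleolar ribonucleoproteins (snoRNPs) modify this precursor, and a large set of processing and export factors cuts it, folds it and joins it to the ribosomal proteins to give the small (40S) and the large (60S) subunit. In cells that leave a resting state, growth signals are known to raise this pathway early, since new cell mass needs new ribosomes. The genes described here are 47 named members of that pathway, chosen by name and function as snoRNP proteins and their assembly factors, abundant nucleolar proteins, factors of the small subunit, factors of the large subunit, and parts and regulators of RNA polymerase I. Their probes were found through the transcript accession of each probe. Of the 47 members, 45 had a probe, together 72 of the 41174 probes on the array. No probe was matched to Nop56, a core protein of box C/D snoRNPs, or to Ltv1, a factor of pre-40S export, and both are left without values. Of the 45 genes, 25 had 1 probe and 20 had several, and a gene is given here by the probe with the highest mean signal over the 12 arrays. Each of the 45 exceeded background clearly on all 12 arrays.

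3T3-L1 is a mouse embryonic fibroblast line that can be turned into adipocytes in culture, and it is 1 clonal line kept without other cells of adipose tissue. Confluent cells in medium with newborn bovine serum were harvested at 0 h, and others 6 h after a change to medium with fetal bovine serum, 0.5 mM isobutylmethylxanthine, 1 µM dexamethasone and 5 µg/ml insulin, so the hormones and the serum changed together. Lysates were separated on sucrose gradients, in which an mRNA sediments faster the more ribosomes it carries, and gradient fractions 5 to 7 were pooled as the non-polysomal fraction (np) and 9 to 11 as the polysomal fraction (p). Each of the 4 groups, np and p at 0 h and np and p at 6 h, had 3 biological replicates on 12 one-color arrays, and replicate number and slide were the same thing. The spike-in RNA was added per amount of pool RNA, so a signal is a level within a pool and not an amount per cell, and in these bulk lysates fewer cells with a transcript and less transcript per cell cannot be told apart.

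Values are log2 signals scaled by spike-ins, and differences between groups are log2 differences with their standard error (SE) from a limma fit over all 12 arrays, with n = 3 arrays a group. The M-value is the polysomal minus non-polysomal difference at 6 h less that at 0 h, so it is positive where an mRNA moved towards the polysomes. A gene is called higher or lower where limma's p, adjusted by the Benjamini-Hochberg method over all probes, was below 0.05. In counts and medians over all genes, each symbol counts once and each transcript without a symbol counts as a gene of its own. Of 32839 transcripts on the array 18754 had a symbol, so many of the genes compared with the members are transcripts without one. Over the arrays, 55.7% to 60.8% of the probes were well above background, and the 75th percentile of the intensity ranged from 224 to 267 off polysomes and from 401 to 528 on polysomes. The spike-ins were dimmer on the polysomal 6 h arrays than elsewhere, by 0.76 to 0.91 for the 5 dimmer ones and by 0.02 to 0.28 for the 5 brighter ones, so contrasts with that group move with the scaling: their median over all 32282 genes tested was 0.54 for the polysomal change, 0.61 for the difference between fractions at 6 h and 0.50 for M, and the members are read against those medians. All 8 fibroblast and preadipocyte markers were well above background on every array. The 5 mature adipocyte markers were Adipoq, Lep, Plin1, Cfd and Fabp4. On polysomes 4 of them were called higher at 6 h than at 0 h and 1 lower, where 50.7% and 10.6% of all genes were. Off polysomes 1 was called higher, where 19% of all genes were. Lep and Cfd never reached a signal well above background. Of 7 measured markers of blood, endothelial and epithelial cells, Epcam, Cdh1 and Pecam1 never did, Ptprc and Adgre1 each on 1 array, Cdh5 on the 3 polysomal arrays at 6 h alone, and Krt8 on all arrays. Their part in the results below was not tested.

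The first question was how the mRNAs of ribosome assembly changed over the 6 h in each fraction. Most rose, and most rose in both fractions. In the polysomal fraction 40 of the 45 members were higher at 6 h than at 0 h and 2 were lower, Utp20 and Tcof1, where 50.7% of all genes tested were called higher and 10.6% lower. Among the 15256 genes that, like the members, were well above background on every array, 62.5% were higher and 17.8% lower. By more than 2-fold 36 members rose, against 18.4% of all genes and 28.1% of those. The median change of the members was 1.74, against 0.54 over all genes and 0.57 over the genes detected in this way. In the non-polysomal fraction 33 members were higher and 6 lower, where 19% of all genes were higher and 19% lower (34.8% and 32.8% of the detected ones), and 28 members rose by more than 2-fold, against 7.47% of all genes. The median change there was 1.21, against 0.03 over all genes. Both fractions rose in 32 of 45 members (71.1%), against 17.2% of all genes and 32.7% of the detected ones. In 4 members, Ncl, Npm1, Polr1c and Ubtf, the polysomal level rose while the non-polysomal level fell. That is 8.89% of the members, where 4.69% of all genes and 9.14% of the detected ones did so. In a further 4 (8.89%), Fbl, Utp18, Wdr12 and Rpf1, the polysomal level rose with no call in the non-polysomal fraction, as in 28.8% of all genes and 20.7% of the detected ones. Tcof1 fell in both. Nat10 and Rrp1 had no call in either fraction. Within the 3 replicate numbers, which are the 3 slides, the median polysomal change of the members was 1.84, 1.57 and 1.74 and the median non-polysomal change 1.31, 1.13 and 1.24. With each array scaled to its 75th percentile, 38 members were higher and 6 lower in the polysomal fraction, where 21.3% and 19.3% of all genes were, and 34 higher and 7 lower in the non-polysomal fraction, where 18.7% and 21.7% of all genes were.

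**Figure D1:**
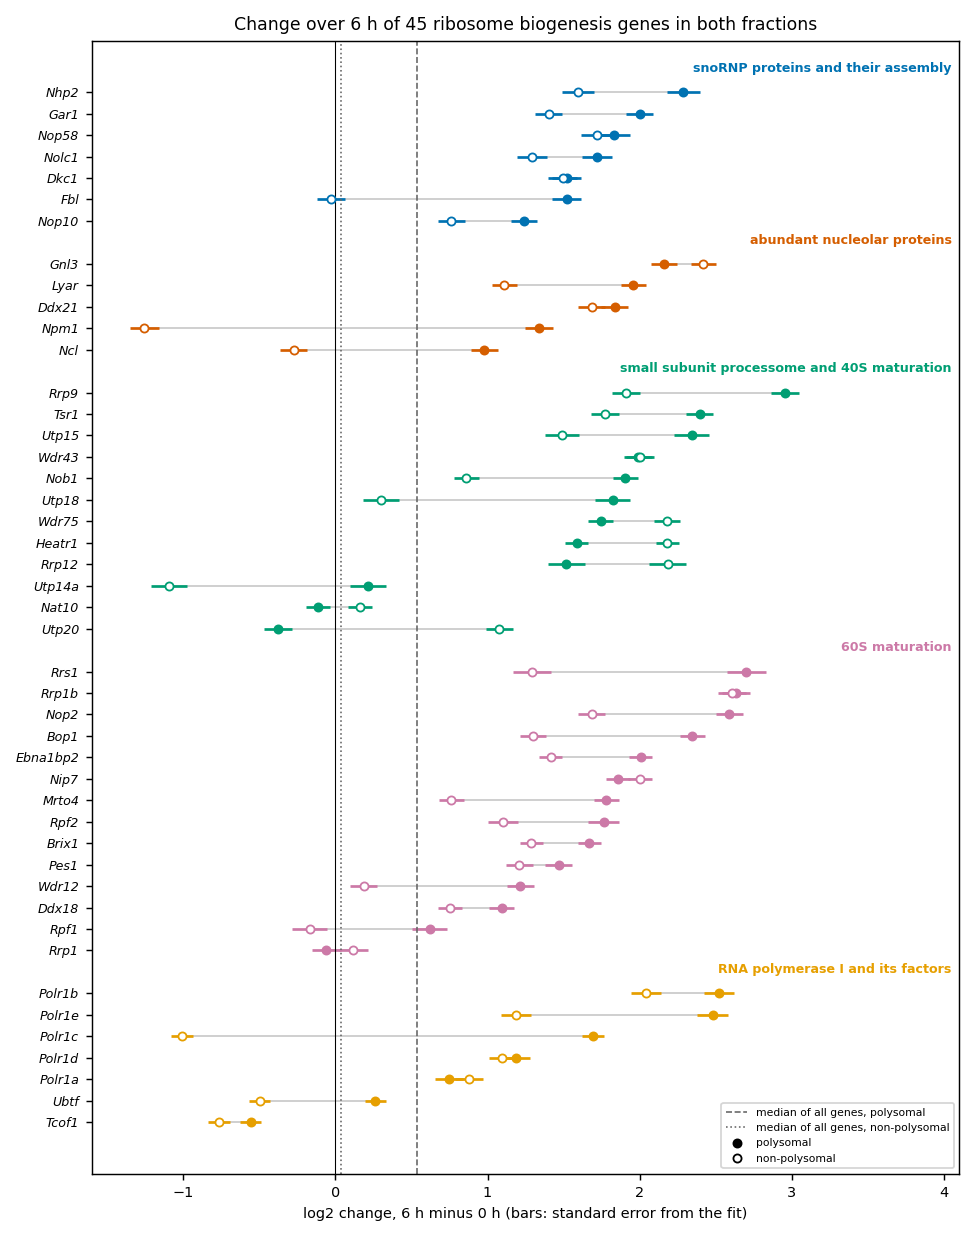
Log2 change from 0 h to 6 h of the 45 members with a probe, in the polysomal (filled circles) and the non-polysomal fraction (open circles), with the standard error of the fit as bars and the members grouped by role. Filled circles lie right of 0 for all but Utp20, Nat10, Rrp1 and Tcof1, and most members of both kinds lie right of the medians of all genes, drawn as dashed and dotted lines at 0.54 and 0.03.

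The second question was where these mRNAs lay before and after induction. At 0 h they were already mostly on the polysomal side. The polysomal level exceeded the non-polysomal level in 39 of 45 members at 0 h, where 33% of all genes were called so, and was below it in 3, where 15.8% of all genes were. Among the detected genes these shares were 61.7% and 22.6%. The median difference was 1.84, against 0.08 over all genes and 0.78 over those well above background on every array. At 6 h 42 members were higher in the polysomal fraction, against 57.8% of all genes, and 2 were lower, against 10.4%, with a median of 2.43 against 0.61 over all genes and 1.27 over the detected ones, of which 74.3% were higher and 14.4% lower. The 3 members on the non-polysomal side at 0 h, singled out here after their values were seen, were Nhp2 and Nop10, both small proteins of the box H/ACA snoRNPs that guide pseudouridylation, and Polr1d, a small subunit shared by RNA polymerases I and III. Polr1d was -2.27 ± 0.09 at 0 h and -2.17 ± 0.09 at 6 h, and Nop10 -1.38 ± 0.09 and -0.91 ± 0.09. Nhp2 went from -0.84 ± 0.11 to -0.14 ± 0.11, the latter without a call, although it was -1.46 and called lower with 75th percentile scaling, -1.35 and called lower with quantile normalization, and 0.23 and called higher with the dimmer spike-ins alone. Npm1, Utp14a and Polr1c were even between the fractions at 0 h, at -0.02, -0.0048 and -0.07, none of them called, and with 75th percentile scaling all 3 were called lower in the polysomal fraction. That scaling left 35 members higher and 6 lower at 0 h, where 21.3% and 54.2% of all genes were, and 36 higher and 5 lower at 6 h, where 21.6% and 48.9% were.

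**Figure D2:**
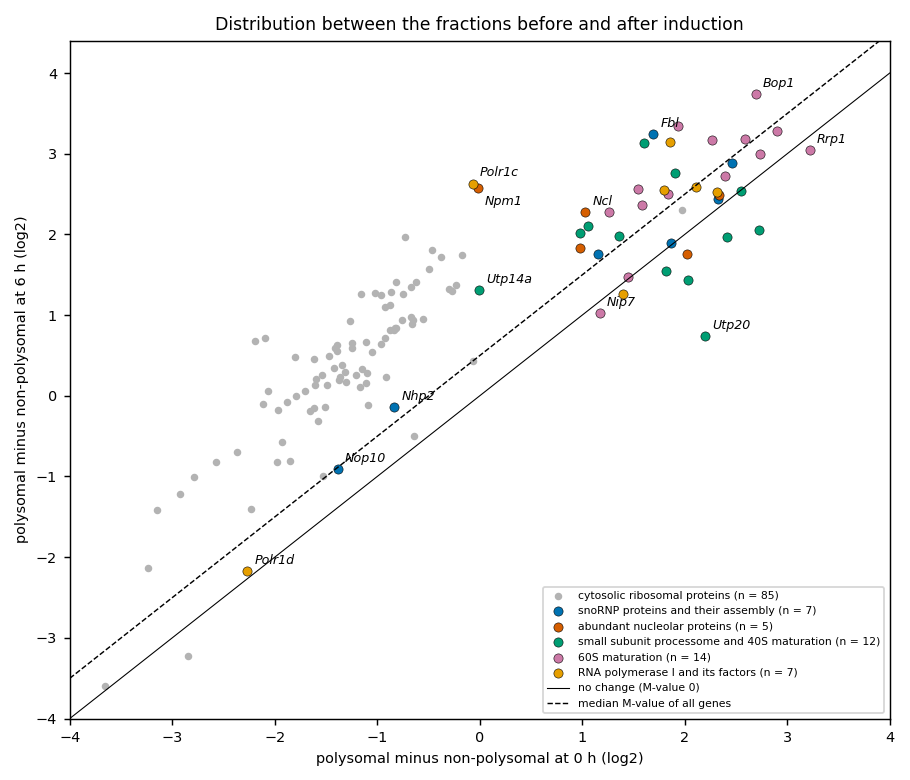
Polysomal minus non-polysomal log2 signal at 0 h (horizontal) and at 6 h (vertical), 1 point a gene, for the members in colour by role and the 85 cytosolic ribosomal protein genes in grey. The solid line marks an M-value of 0 and the dashed line the median M-value of all genes, 0.50. Most members lie in the upper right around the dashed line, Npm1 and Polr1c far above it and Utp20 far below.

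The third comparison, the M-value, asks whether the share on polysomes changed. As a group the members stood near the middle of all genes. M was called higher in 28 of 45 members, where 31.8% of all genes were, and lower in 4, where 3.57% of all genes were. Among the detected genes the shares were 54.8% and 5.85%, where the members had 62.2% and 8.89%. An M-value above 1 with a call was found in 13 members, against 12.3% of all genes and 18.4% of the detected ones. The median M of the members was 0.59, against 0.50 over all genes and 0.52 over genes well above background on every array. Within replicate numbers 1, 2 and 3 the median M of the members was 0.67, 0.44 and 0.62. The called direction of M depends on the scaling more than the changes over time do. With 75th percentile scaling 18 members were higher and 16 lower, where 15.4% and 11.6% of all genes were. With quantile normalization 16 were higher and 18 lower, with a median of 0.0499 against 0.0052 over all genes. The share of all genes called was not computed for that normalization, so these counts are not read as particular to the members. The median of the members exceeded that of all genes by 0.09 with spike-in scaling and by 0.04 with quantile normalization. Scaling to the 75th percentile shifts whole arrays and so cannot change that distance. The highest M-values were those of Polr1c (2.70), Npm1 (2.59), Fbl (1.55), Utp18 (1.52), Rrs1 (1.41), Utp14a (1.31), Polr1e (1.29) and Ncl (1.25). With spike-in scaling the 4 members with a lower M were all small subunit factors, namely Utp20 (-1.45), Rrp12 (-0.67), Heatr1 (-0.59) and Wdr75 (-0.44). None of these calls held under every alternative. With the authors' log2 values Rrp12 (0.000578) and Wdr75 (-0.25) had no call, and with the dimmer spike-ins alone Rrp12 (-0.21), Heatr1 (-0.14) and Wdr75 (0.02) had none. With normexp over all spots, which could not be fitted well on 3 arrays, none of the 4 was called, Utp20 (0.58) included. With normexp fitted without spots of uneven background Wdr75 (-0.19) had no call and Rrp12 was called higher (0.26). With the mean of its 3 probes Heatr1 (0.14) had no call. Wdr75 also lost its call without any 1 of the replicate numbers, and Rrp12 without number 1 or 2.

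**Figure D3:**
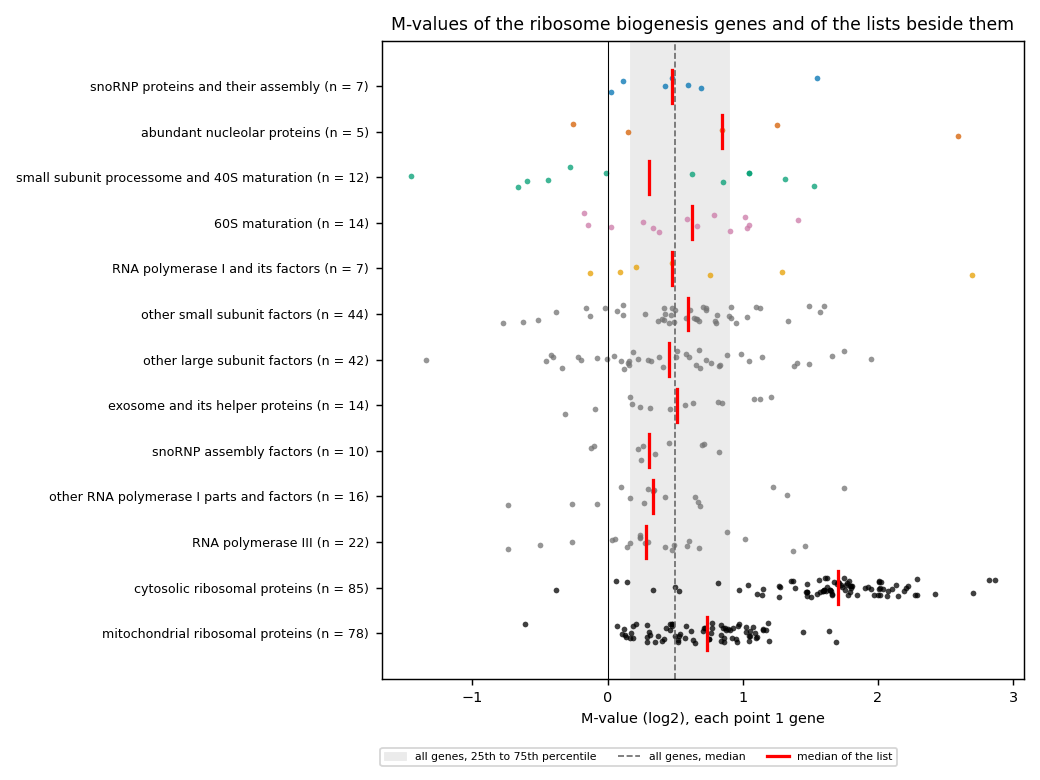
M-value of every gene with a probe (points) in the 5 role groups of the members (colour), in 6 lists of other genes of the pathway (grey) and in the cytosolic and mitochondrial ribosomal proteins (black), with the median of each list in red. The grey band spans the 25th to the 75th percentile of all genes and the dashed line is their median, 0.50. The medians of the role groups lie between 0.31 and 0.85, that of the cytosolic ribosomal proteins at 1.70.

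The snoRNP proteins rose in the polysomal fraction in all 7 measured cases, by 1.24 to 2.29, where 62.5% of the detected genes rose. In the non-polysomal fraction 6 of 7 rose, where 34.8% of the detected genes did. Fbl encodes fibrillarin, the methyltransferase of the box C/D snoRNPs, and had the highest M-value of this group. Its log2 signal was 13.08, 13.11 and 13.04 in the non-polysomal and 14.57, 14.89 and 14.84 in the polysomal fraction at 0 h, and 13.11, 13.03 and 13.00 and 16.21, 16.26 and 16.39, in the same order, at 6 h. The polysomal arrays at 6 h stood above all others, and the non-polysomal arrays of the 2 times overlapped. The polysomal change was 1.52 ± 0.09 (limma, adjusted p = 3.29e-07), the non-polysomal one -0.03 ± 0.09 (adjusted p = 0.852), and M was 1.55 ± 0.13 (adjusted p = 2.4e-05). Dkc1 encodes dyskerin, the pseudouridine synthase of the box H/ACA snoRNPs, and had the lowest M-value of the group. It was measured at 5.73, 5.72 and 5.74 in the non-polysomal and 7.45, 7.75 and 7.59 in the polysomal fraction at 0 h, and 7.25, 7.28 and 7.14 and 9.06, 9.03 and 9.27, in the same order, at 6 h. Both fractions rose without overlap and by nearly equal steps, 1.52 ± 0.10 on the polysomal and 1.49 ± 0.10 on the non-polysomal side, so that M was 0.03 ± 0.14 with an adjusted p of 0.893 by limma. Its other probe had an M of 0.20. Under 75th percentile scaling M of Dkc1 was -0.40 and called lower.

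The other 5 measured proteins of this group rose in both fractions, although Nhp2 and Nop10 lay on the non-polysomal side. Nop58, the partner of fibrillarin in box C/D particles, rose by 1.83 in the polysomal and 1.72 in the non-polysomal fraction. Gar1, Nhp2 and Nop10, which complete the H/ACA core, rose by 2.00, 2.29 and 1.24 on polysomes and by 1.40, 1.59 and 0.76 off them. Nolc1, a chaperone of snoRNPs, rose by 1.72 and 1.29. Nop10 and Nhp2 differed in how far apart their fractions were at 6 h. Nop10 had log2 signals of 13.29, 13.41 and 13.33 in the non-polysomal and 11.90, 12.11 and 11.87 in the polysomal fraction at 0 h, and 14.15, 14.08 and 14.09 and 13.10, 13.20 and 13.30, in the same order, at 6 h, with the non-polysomal arrays above the polysomal ones at both times. For Nhp2 they were 11.98, 11.99 and 11.82 in the non-polysomal and 10.96, 11.23 and 11.10 in the polysomal fraction at 0 h, and 13.64, 13.55 and 13.39 and 13.25, 13.35 and 13.54, in the same order, at 6 h, and the fractions overlapped at 6 h.

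Among the abundant nucleolar proteins the polysomal level rose in all 5, by 0.98 to 2.16, where 62.5% of the detected genes rose. The non-polysomal level rose in 3 and fell in 2, where 34.8% and 32.8% of the detected genes did. With quantile normalization 3 of the 5 kept a call on polysomes, and Npm1 (0.03) and Ncl (-0.07) had none. Those 2 were the histone chaperone and assembly factor nucleophosmin, Npm1, and the RNA-binding protein nucleolin, Ncl. Npm1 gave 15.27, 15.22 and 15.20 in the non-polysomal and 15.04, 15.37 and 15.23 in the polysomal fraction at 0 h, and 13.98, 14.04 and 13.91 and 16.54, 16.47 and 16.64, in the same order, at 6 h. At 0 h the fractions overlapped, and at 6 h the polysomal arrays stood above and the non-polysomal arrays below all arrays of 0 h. The polysomal level rose by 1.34 ± 0.09 (limma, adjusted p = 8.44e-07), the non-polysomal level fell by 1.25 (SE 0.09, adjusted p = 2.18e-06), and M was 2.59 ± 0.13 (adjusted p = 1.66e-06). A second Npm1 probe had an M of 2.55. Ncl was at 12.94, 12.98 and 12.80 in the non-polysomal and 13.77, 14.06 and 13.97 in the polysomal fraction at 0 h, and 12.63, 12.60 and 12.67 and 14.99, 14.86 and 14.89, in the same order, at 6 h. Its polysomal arrays at 6 h were the highest and its non-polysomal arrays at 6 h the lowest of the 12. The polysomal level of Ncl rose by 0.98 ± 0.09 (limma, adjusted p = 5.8e-06) and M was 1.25 ± 0.13 (adjusted p = 6.21e-05). The fall of Ncl in the non-polysomal fraction was small, -0.27 ± 0.09 (limma, adjusted p = 0.0313), and with replicate number as a block its adjusted p was 0.0599. It lost its call in 5 of 11 settings in all, and again without any 1 of the replicate numbers. Of its 4 probes, 3 changed by -0.27 to -0.38 there and the fourth rose by 1.22, while M was 1.19 to 1.25 on all 4.

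Gnl3, Lyar and Ddx21 rose in both fractions. Gnl3 encodes nucleostemin, a nucleolar GTP-binding protein of dividing cells, and had the lowest M-value of this group. Its signals were 6.88, 7.00 and 6.86 in the non-polysomal and 8.87, 9.08 and 8.85 in the polysomal fraction at 0 h, and 9.35, 9.26 and 9.38 and 11.09, 11.04 and 11.15, in the same order, at 6 h. No group overlapped another, and both fractions rose by more than 4-fold, 2.16 ± 0.08 on and 2.42 ± 0.08 off polysomes. M of Gnl3 was -0.26 ± 0.12 (limma, adjusted p = 0.109), without a call, and -0.68 with a call under 75th percentile scaling. Lyar, a nucleolar zinc finger protein, rose by 1.96 and 1.11, with an M of 0.85. Ddx21, a nucleolar RNA helicase, rose by 1.84 and 1.68. Its 3 probes gave M-values of 0.15, 0.03 and 1.16, of which the last was called.

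With spike-in scaling the small subunit group was the most divided role group in M, with 6 of 12 measured members higher, 4 lower and 2 without a call. With 75th percentile scaling these counts were 5, 6 and 1. Other role groups were divided too under that scaling, with 3 higher and 3 lower of 7 for RNA polymerase I and 3 and 2 of 5 for the abundant nucleolar proteins. The 44 other small subunit factors were less divided, with 32 higher and 3 lower (16 and 9 with 75th percentile scaling). With spike-in scaling 54.8% of the detected genes had a higher and 5.85% a lower M. The polysomal level of the group rose in 9, by 1.52 to 2.96, and fell in 1 (3 with 75th percentile scaling). Of the detected genes 62.5% rose and 17.8% fell there. The non-polysomal level rose in 9 and fell in 1, where 34.8% and 32.8% of the detected genes did. Utp20, a large scaffold protein of the small subunit processome, was the member with the lowest M-value of all. Its log2 signal was 6.75, 6.74 and 6.67 in the non-polysomal and 8.80, 9.07 and 8.88 in the polysomal fraction at 0 h, and 7.81, 7.81 and 7.77 and 8.51, 8.43 and 8.68, in the same order, at 6 h. The non-polysomal arrays rose and the polysomal arrays fell without overlap, yet at 6 h the polysomal arrays remained above the non-polysomal ones. Off polysomes Utp20 rose by 1.08 ± 0.09 (limma, adjusted p = 5.02e-06), on polysomes it changed by -0.38 ± 0.09 (adjusted p = 0.00523), and M was -1.45 ± 0.13 (adjusted p = 2.92e-05). The polysomal change of Utp20 was -0.24 without a call when replicate 2 was left out and 0.03 when the scaling used the dimmer spike-ins alone. The polysomal minus non-polysomal difference of Utp20 at 6 h, 0.74 with spike-in scaling, was -0.57 with 75th percentile scaling. Utp18, a WD-repeat protein of the processome that is known to recruit the exosome, had the highest M-value of the group. Utp18 gave 8.24, 8.34 and 8.20 in the non-polysomal and 9.64, 9.92 and 10.05 in the polysomal fraction at 0 h, and 8.59, 8.56 and 8.53 and 11.69, 11.52 and 11.86, in the same order, at 6 h. On polysomes the times were far apart, and off polysomes they were close, though without overlap. Its polysomal change was 1.82 ± 0.12 (limma, adjusted p = 4.87e-07), the non-polysomal one 0.30 ± 0.12 (adjusted p = 0.0733) and M 1.52 ± 0.17 (adjusted p = 0.000102), while a second and dimmer probe, not well above background on 1 array, had an M of 0.28 with no call.

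Nat10, the acetyltransferase of the small subunit RNA, gave 6.93, 6.95 and 6.96 in the non-polysomal and 8.63, 8.84 and 8.83 in the polysomal fraction at 0 h, and 7.15, 7.16 and 7.02 and 8.68, 8.57 and 8.72, in the same order, at 6 h. At both times the polysomal arrays were higher, and over time the polysomal arrays overlapped. Neither fraction changed with a call, with -0.11 ± 0.08 on polysomes (limma, adjusted p = 0.245) and 0.16 ± 0.08 off them (adjusted p = 0.157), though the former was -0.60 and called lower with 75th percentile scaling. Utp14a, a cofactor of the processome helicase, was the other gene of the group that was not called higher in either fraction. It was at 6.60, 6.82 and 6.59 in the non-polysomal and 6.48, 6.85 and 6.67 in the polysomal fraction at 0 h, and 5.57, 5.53 and 5.63 and 6.94, 6.70 and 7.00, in the same order, at 6 h, with overlap of the fractions at 0 h and a lower non-polysomal group at 6 h. Off polysomes Utp14a fell by 1.09 (SE 0.12; limma, adjusted p = 2.94e-05), and its polysomal change of 0.22 had no call. That polysomal value was called in 5 of 11 other settings, lower with 75th percentile scaling (-0.27) and higher in the other 4, such as 0.62 with the dimmer spike-ins alone, and its 2 probes differed in this call. The remaining members of the group rose in both fractions. Utp15, Wdr43, Wdr75 and Heatr1 belong to the subcomplex that links early processing to transcription of the precursor. They rose on polysomes by 2.34, 1.99, 1.74 and 1.59 and off them by 1.49, 2.00, 2.18 and 2.18. The probes of Utp15 differed in call for both changes and for M. Those of Heatr1 differed for the non-polysomal change, the difference between fractions at 0 h and M. Rrp9, a protein of the U3 snoRNP, had the highest polysomal change of the 45 members, 2.96 ± 0.09, and rose by 1.91 off polysomes. Of the late factors, Rrp12, which serves subunit export, rose by 1.52 and 2.18, Tsr1 by 2.39 and 1.77, and Nob1, the nuclease that makes the final cut of the small subunit RNA, by 1.91 and 0.86.

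Of the 14 members that mature the 60S subunit, 13 rose on polysomes and none fell, and 11 rose off polysomes and none fell. All 14 were higher in the polysomal fraction at both times. With 75th percentile scaling 12 rose and 1 fell on polysomes, and at 6 h 12 were higher and 1, Nip7, lower in the polysomal fraction. With spike-in scaling 62.5% of the detected genes rose on and 34.8% off polysomes. At 0 h 61.7% and at 6 h 74.3% of the detected genes were higher in the polysomal fraction. M was higher in 10 of the 14 and lower in none, where 54.8% and 5.85% of the detected genes were. Under 75th percentile scaling M of the members was higher in 6 and lower in 3. Nop2, a methyltransferase of the large subunit RNA, was measured at 10.76, 10.86 and 10.83 in the non-polysomal and 12.93, 13.16 and 13.15 in the polysomal fraction at 0 h, and 12.48, 12.53 and 12.50 and 15.72, 15.53 and 15.77, in the same order, at 6 h. No group overlapped another, and the polysomal arrays at 6 h were the highest. Nop2 rose by 2.59 ± 0.09 on and 1.68 ± 0.09 off polysomes, with an M of 0.91 ± 0.13 (limma, adjusted p = 0.000405). Rrs1, which helps to bring the 5S RNA particle into the precursor, had the highest M-value of the group, and its signals were 7.84, 7.75 and 7.75 in the non-polysomal and 9.46, 9.93 and 9.74 in the polysomal fraction at 0 h, and 9.15, 9.05 and 9.02 and 12.47, 12.21 and 12.55, in the same order, at 6 h. It rose by 2.70 ± 0.13 on and 1.29 ± 0.13 off polysomes, and M was 1.41 ± 0.18 (limma, adjusted p = 0.000252). Again the 4 groups were apart. At the other end stood Rrp1, a nucleolar factor of the large subunit, at 9.14, 9.22 and 9.28 in the non-polysomal and 12.32, 12.58 and 12.39 in the polysomal fraction at 0 h, and 9.40, 9.27 and 9.33 and 12.47, 12.21 and 12.44, in the same order, at 6 h. Its polysomal arrays lay far above its non-polysomal arrays at both times, and the 2 times overlapped in each fraction. Neither change of Rrp1 was called, with -0.06 ± 0.10 on and 0.12 ± 0.10 off polysomes, and M was -0.18 ± 0.14 (limma, adjusted p = 0.314). Its paralog Rrp1b rose by 2.63 and 2.61. With 75th percentile scaling the polysomal change of Rrp1 was -0.54 and called lower.

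Bop1, Pes1 and Wdr12 form the PeBoW complex of large subunit processing. For Bop1 the log2 signal was 8.59, 8.82 and 8.81 in the non-polysomal and 11.41, 11.49 and 11.40 in the polysomal fraction at 0 h, and 10.11, 9.96 and 10.06 and 13.73, 13.76 and 13.86, in the same order, at 6 h. Pes1 was at 9.74, 9.83 and 9.72 in the non-polysomal and 12.33, 12.58 and 12.59 in the polysomal fraction at 0 h, and 11.00, 10.92 and 10.99 and 14.02, 13.86 and 14.03, in the same order, at 6 h. In both genes the 4 groups were apart and the order of the groups was the same, with the non-polysomal arrays at 0 h lowest and the polysomal arrays at 6 h highest. Bop1 rose by 2.35 ± 0.08 and 1.30 ± 0.08, with an M of 1.05 ± 0.12 (limma, adjusted p = 0.000127), and Pes1 by 1.47 ± 0.09 and 1.21 ± 0.09, with an M of 0.26 ± 0.13 (adjusted p = 0.129). A second Pes1 probe had an M of 0.68 with a call. Wdr12 rose by 1.21 on polysomes, with 0.19 and no call off them. Among the others, Ebna1bp2, Nip7, Mrto4, Rpf2, Brix1 and the helicase Ddx18 rose by 1.09 to 2.00 on polysomes and by 0.75 to 2.00 off them. Rpf1 rose by 0.62 on polysomes, near the median of all genes, and its 0.13 under 75th percentile scaling had no call.

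RNA polymerase I and its factors were mixed. On polysomes 6 of 7 rose and 1 fell (5 and 2 with 75th percentile scaling), where 62.5% and 17.8% of the detected genes did. Off polysomes 4 rose and 3 fell, where 34.8% and 32.8% of the detected genes did. The largest catalytic subunit, Polr1a, had log2 signals of 9.85, 9.91 and 9.79 in the non-polysomal and 11.09, 11.38 and 11.27 in the polysomal fraction at 0 h, and 10.81, 10.71 and 10.68 and 12.00, 11.90 and 12.09, in the same order, at 6 h. The second, Polr1b, was at 6.42, 6.48 and 6.30 in the non-polysomal and 8.30, 8.69 and 8.55 in the polysomal fraction at 0 h, and 8.44, 8.47 and 8.42 and 11.05, 10.99 and 11.07, in the same order, at 6 h. Both genes rose in both fractions, with no overlap between the times in either fraction. Polr1a rose by 0.75 ± 0.09 on and 0.88 ± 0.09 off polysomes, and Polr1b by 2.52 ± 0.10 and 2.04 ± 0.10. M was -0.13 ± 0.13 for Polr1a (limma, adjusted p = 0.429), the lowest of the group, and 0.48 ± 0.14 for Polr1b (adjusted p = 0.0223, lost on leaving out any 1 replicate number). Polr1e, a subunit of the part that starts and extends transcription, rose by 2.48 and 1.19.

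Polr1c and Polr1d pair with each other in RNA polymerases I and III, and their mRNAs were distributed differently. Polr1c was measured at 13.24, 13.31 and 13.19 in the non-polysomal and 13.08, 13.29 and 13.16 in the polysomal fraction at 0 h, and 12.22, 12.21 and 12.30 and 14.89, 14.82 and 14.90, in the same order, at 6 h. At 0 h its fractions overlapped, and at 6 h the polysomal arrays were above and the non-polysomal arrays below all those of 0 h. The polysomal level rose by 1.69 ± 0.07 (limma, adjusted p = 3.35e-08), the non-polysomal level changed by -1.01 ± 0.07 (adjusted p = 1.98e-06), and M was 2.70 ± 0.10 (adjusted p = 1e-06), the highest of the 45. Polr1d, added here after its values were seen, was at 12.18, 12.29 and 12.17 in the non-polysomal and 9.78, 10.06 and 10.00 in the polysomal fraction at 0 h, and 13.31, 13.31 and 13.31 and 11.06, 11.09 and 11.25, in the same order, at 6 h. It rose in both fractions, by 1.19 ± 0.09 and 1.10 ± 0.09, and the non-polysomal arrays stayed above the polysomal ones.

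Ubtf and Tcof1 act with the polymerase at the ribosomal DNA, Ubtf as the upstream binding factor and Tcof1 as treacle, its partner in transcription. Ubtf gave 10.44, 10.46 and 10.52 in the non-polysomal and 12.21, 12.32 and 12.28 in the polysomal fraction at 0 h, and 9.96, 9.97 and 10.00 and 12.44, 12.56 and 12.60, in the same order, at 6 h. The steps over time were small but without overlap, upwards on and downwards off polysomes. The polysomal change was 0.26 ± 0.07 (limma, adjusted p = 0.00772), below the median of all genes, and turned to -0.22 with 75th percentile scaling. Off polysomes Ubtf changed by -0.50 ± 0.07 (limma, adjusted p = 0.000169), and M was 0.76 ± 0.10 (adjusted p = 0.000235). Tcof1 was at 9.11, 9.19 and 9.17 in the non-polysomal and 11.39, 11.57 and 11.46 in the polysomal fraction at 0 h, and 8.46, 8.38 and 8.34 and 10.93, 10.87 and 10.94, in the same order, at 6 h. It was the only member called lower in both fractions, with -0.56 ± 0.07 on polysomes (limma, adjusted p = 7.17e-05) and -0.76 ± 0.07 off them (adjusted p = 9.72e-06). With the dimmer spike-ins alone as the scale, its polysomal change was -0.15 without a call. M of Tcof1 was 0.21 ± 0.10 (limma, adjusted p = 0.122).

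**Figure D4:**
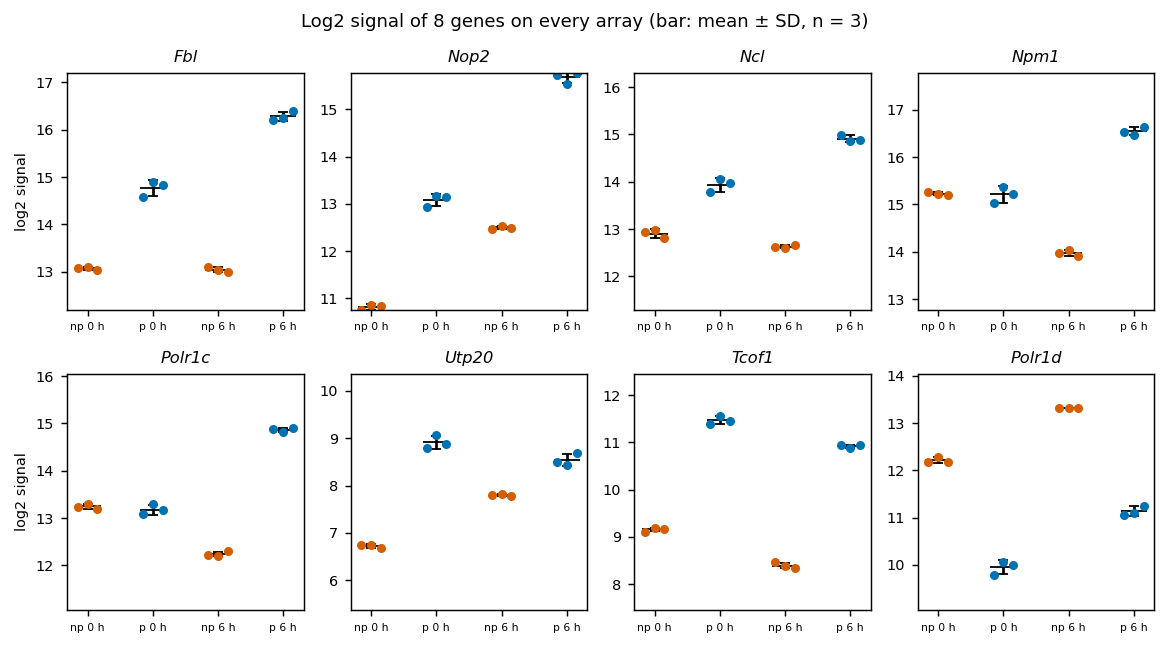
Log2 signal of 8 members on each of the 12 arrays, non-polysomal (np, orange) and polysomal (p, blue) at 0 h and 6 h, with the mean and SD of the 3 replicates in black. Every panel spans 5 log2 units, but its position is set by its own gene, since levels of different probes are not comparable. Npm1 and Polr1c separate between the fractions at 6 h, Utp20 rises off polysomes only, Tcof1 falls in both fractions and Polr1d stays higher off polysomes.

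The probes of 1 gene did not always give the same call. Of the 20 genes with several probes, all probes had equal calls in 17 for the polysomal change, in 14 for the non-polysomal change, in 19 and 20 for the differences between fractions at 0 h and 6 h, and in 11 for M. Opposite calls occurred in 1 case, the non-polysomal change of Ncl. The typical spread was small beside the changes over time, with a median SD of 0.08 among the 3 arrays of a group and a median SE of 0.13 for M.

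Other genes of the pathway, 148 in 6 lists of which every gene had a probe, are given beside the members. On polysomes 135 rose and 9 fell, with a median of 1.20 (112 and 15 with 75th percentile scaling). With spike-in scaling 50.7% of all genes rose there and 10.6% fell, and of the detected ones 62.5% and 17.8%. Off polysomes 114 of the 148 rose and 15 fell, with a median of 0.72. Of all genes 19% rose and 19% fell off polysomes, and of the detected ones 34.8% and 32.8%. The median M of the 148 was 0.46, against 0.50 over all genes and 0.52 over the detected ones. Among the 44 other small subunit factors 42 rose on polysomes, with a median of 1.25. Among the 42 other large subunit factors 41 rose, with a median of 1.46, from Nvl at -0.44 to Nop16 at 2.72. In the exosome, which trims the precursor, and its helpers 13 of 14 rose, and Exosc8 changed by -0.52. All but 1 of 16 other polymerase I parts and factors rose on polysomes, the exception being Baz2a, a silencer of ribosomal DNA, at -0.38. RNA polymerase III and its factors, which make the 5S RNA and transfer RNAs, had 15 higher and 5 lower of 22 and a median of 0.51 where all genes had 0.54, and 8 of them were higher and 8 lower with 75th percentile scaling. Maf1, the repressor of polymerase III, was at -0.44 on and -1.05 off polysomes.

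The mRNAs of the ribosomal proteins, the other large class of ribosome genes, were distributed differently. Of 85 cytosolic ribosomal protein genes, 80 had at 0 h a lower polysomal than non-polysomal level and 1 a higher one, with a median of -1.25, where the members had 1.84. Their median change was 2.09 on and 0.36 off polysomes, where the members had 1.74 and 1.21. Their median M was 1.70, with 81 higher and 1 lower (77 and 2 with 75th percentile scaling). The list was made by symbol and holds paralogs of ribosomal protein genes. Among these were the gene with the higher polysomal level at 0 h, Rpl7l1 (1.97), and the gene with the lower M, Rps27l (-0.38). Taken against the median of all genes, M was 1.20 higher in the ribosomal proteins and 0.09 higher in the members. The median M of 78 mitochondrial ribosomal proteins was 0.73, with 0.92 on and 0.36 off polysomes. These are counts and medians side by side, and no test between the lists was made.

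Promoters of the members were searched for 2 short patterns in RefSeq windows of the build GRCm38.p6, which run from 250 bases before to 50 bases after an annotated start. Of the 47 members 40 had a window, and Fbl, Npm1, Rrp12, Bop1, Rrs1, Rpf1 and Tcof1 had none. The letters CACGTG, known as an E-box and identical on both strands, were present in 8 of the 40 (20%), in 24 of 120 other pathway genes (20%), in 6 of 66 cytosolic ribosomal protein genes (9.09%) and in 8.09% of 27025 genes with a window. The second pattern was a start at C followed by at least 4 pyrimidines, as terminal oligopyrimidine mRNAs of ribosomal proteins have. It stood at the annotated start of 0 of 40 members, 22.7% of the ribosomal protein genes and 3.01% of all genes with a window. Within 5 bases of the annotated start it was found in 10 of 40 members (25%), 47% of the ribosomal protein genes and 21.2% of all genes with a window. Most ribosomal protein genes thus lacked the pattern at their annotated start. Its absence there cannot show that a member lacks such a start, and the members without a window, Npm1 among them, were not searched. The 8 stretches of 30 bases that hold the E-box are shown because their genes include both a member that rose strongly in both fractions, Nop2, and the member with the lowest M-value, Utp20. Capitals mark the E-box, and a sequence is read 5′ to 3′ on the strand of its gene.
Utp20, chr10:88826765-88826794, - strand: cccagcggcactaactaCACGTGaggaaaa
Utp18, chr11:93885769-93885798, - strand: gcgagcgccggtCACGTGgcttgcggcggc
Wdr43, chr17:71616220-71616249, + strand: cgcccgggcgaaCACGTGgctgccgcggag
Tsr1, chr11:74898092-74898121, + strand: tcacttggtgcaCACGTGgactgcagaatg
Ltv1, chr10:13193092-13193121, - strand: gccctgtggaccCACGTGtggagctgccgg
Nop2, chr6:125131811-125131840, + strand: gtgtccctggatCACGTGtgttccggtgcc
Pes1, chr11:3963965-3963994, + strand: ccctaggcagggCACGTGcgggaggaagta
Rpf2, chr10:40246988-40247017, - strand: aagtaatcggtaCACGTGcattcgctaagg

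Among members with a probe, the median polysomal change was 1.82 in the 7 with an E-box and 1.74 in the 31 with a window but without one, and the median non-polysomal changes were 1.21 and 1.29. These 7 genes ranged from -0.38 for Utp20 to 2.59 for Nop2 on polysomes. A match of letters is a description of the window and not a measured binding site.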

How the data were processed

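RNA of 3T3-L1 cells from 4 groups (0 h or 6 h, non-polysomal or polysomal fraction, 3 replicates each) was measured on 12 one-color Agilent arrays. The scanner files deposited by the authors hold Cy3 intensities per spot from Feature Extraction 10.7.1.1, among them a background-subtracted and detrended signal, and per the file headers the array design used the build mm9. The authors also deposited log2 values per probe, used here only as an alternative. Groups came from the sample labels.

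The 1639 control spots and 94 to 221 outlier spots per array were left out, which left 484 probe values missing, none of them of a member. Log2 signals were averaged over the spots of a probe, and each array was shifted by its mean over 10 spike-in transcripts, each the median of 32 spots. Symbols came from RefSeq through the transcript accession (26690 of 41174 probes, 64.8%), and Polr1f, Polr1g and Polr1h were matched by older symbols. A gene was represented by its brightest probe, and a transcript without a symbol was treated as its own gene. The 4 groups were fitted in R 4.3.3 with limma 3.58.1 (lmFit, eBayes), with Benjamini-Hochberg adjustment over all probes and a threshold of 0.05. The fit was also run on simulated data with independent noise on every array. Those data held no slide effect and no shift of the spike-ins, so that run cannot show how the fit handles either. The precision is set by the number of arrays, and signal depth by the share of probes well above background.

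The members, their roles, the lists beside them and the genes given on every array (the highest and lowest M-value of each role, and 14 members fixed by role, of which Nop56 had no probe) were chosen with earlier results of these data known. Same-numbered arrays shared a slide. Their deviations correlated at -0.0939 to 0.423 over 18 pairs (median 0.0692). Over 36 pairs of different number the range was -0.377 to 0.199 (median -0.038). Averaged over the arrays of a number, 11 of 12 arrays correlated best with their own number. The single best partner of some arrays had another number, as for polysomal 6 h replicate 2 with polysomal 0 h replicate 1 (0.199). The main fit did not take the numbers as pairs, and the slide was fitted as a block as an alternative. The other alternatives were 75th percentile, quantile and dimmer spike-in scaling, normexp background correction with an offset of 50, dim probes left out, outlier spots kept, the mean of a gene's probes, a trend in the prior variance, and each array or replicate number left out. Normexp used the median signal of a spot, since the files used here have no mean signal. Promoter windows came from the RefSeq table of GRCm38.p6, and promoters were read with Python 3.11.15.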

Additional observations from a re-analysis of the deposited data

Results flagged for a closer look

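In 5 members the changes over time in the 2 fractions were each called and ran in opposite directions. That is 11.1% of the 45 members, where 4.94% of all genes and 9.63% of the genes well above background on every array had opposite calls. The rule that flagged these members also required a call of the M-value, which is the difference of the 2 changes. That call is therefore no further result. Npm1 rose on and fell off polysomes, with an M-value of 2.59, as did Polr1c with 2.7, Ncl with 1.25 and Ubtf with 0.759. Utp20 went the other way, with an M-value of -1.45. Most of these calls were lost somewhere among the 11 settings other than leaving out arrays. The fall of Ncl off polysomes lost its call in 5, and its polysomal rise in 2, among them quantile normalization (-0.07). The polysomal rise of Npm1 lost its call in 1, quantile normalization (0.03), and its fall off polysomes in none. For Utp20 the polysomal fall lost its call in 2 and the non-polysomal rise in 1. For Ubtf the polysomal rise lost its call in 2 and was a called fall in a further 2, with -0.22 under 75th percentile scaling, and its fall off polysomes lost its call in 1. For Polr1c the fall off polysomes lost its call in 1 and the polysomal rise in none. M of Ubtf lost its call in 2 settings and that of Ncl and Utp20 in 1 each.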

How the results depend on the processing

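The increase of most members over time was kept under every scaling that was run, and the direction of M was not. In the following, counts are of the 45 members and medians are log2. With 75th percentile scaling M was higher in 18 and lower in 16 (median 0.17), 6 were lower in the polysomal change (median 1.26), 6 lower in the polysomal minus non-polysomal difference at 0 h (median 0.95) and 5 lower at 6 h (median 1.12), and the directions of Ubtf in the polysomal change (-0.22) and of Utp20 (-0.57) and Nip7 (-0.29) in the difference at 6 h were reversed. With quantile normalization M was higher in 16 and lower in 18 (median 0.0499), 5 were lower in the polysomal change (median 1.05), 5 lower in the difference at 0 h (median 1.07) and 5 lower at 6 h (median 1.03), and M of Brix1 (-0.26) and Ddx18 (-0.20), the polysomal change of Ubtf (-0.57) and the difference at 6 h of Utp20 (-0.50) and Polr1a (-0.15) were reversed. With the offset of the 5 dimmer spike-ins M was lower in 1 (median 1.04), 0 were lower in the polysomal change by limma (median 2.15), and the median at 6 h was 2.81. With the authors' log2 values M was lower in 2, and the medians were 1.08 for the non-polysomal change and 1.56 at 0 h. Normexp over all spots could not be fitted well on 3 arrays. It left 2 members with a higher and 0 with a lower M (median 1.16), 0 lower in the polysomal change, 6 higher and 1 lower in the non-polysomal change (median 0.59), 17 higher at 0 h (median 0.91) and a median of 2.29 at 6 h. A normexp fit that left out spots with uneven background, added once the data had been seen, gave 2 members with a lower M, medians of 0.99 for the non-polysomal change, 1.41 at 0 h and 2.20 at 6 h, and an M of 0.26 for Rrp12, reversed. The causes of these changes were not tested. Leaving out 1 array or 1 replicate number gave 17 to 28 members with a higher and 2 to 5 with a lower M, the 17 without replicate 3 and the 2 without replicate 1 or 2, and 1 to 2 members lower in the polysomal change, the 1 without replicate 2. With replicate number, which is the slide, as a block, M was higher in 26 and lower in 4 members, 33 were higher and 5 lower in the non-polysomal change, and the calls of Nolc1 in M (0.42), Ddx18 in M (0.34) and Ncl in the non-polysomal change (-0.27) were lost. The block changed no other call of a member. Of the 12 arrays 11 correlated best, on average, with the arrays of their own number, a hint from the data and not from the design. The probe that represents each member was well above background on every array. How far weak signals limit these results was not tested.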
